A study of Mus musculus with 10 samples.

Results

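The rearranged *Igk* loci of wild-type B-1a cells were compared with those of wild-type B-2 cells, in 2 libraries each. The 4 libraries were chosen by their labels and make up 4 of the 10 libraries of the series. All 4 came from C57BL/6 mice of 6 to 8 weeks and from the peritoneal cavity, and genomic DNA of sorted cells was the template for PCR. The sort gates separated B-1a cells, as B220lo CD5+, from B-2 cells, as B220+. In 2 further *Igk* libraries the B-1a cells came from mice of the *Igll1*-/- genotype, without the surrogate light chain gene of that name. These libraries entered the fits to help estimate the spread between replicates, and they also counted in the filter that set which features were tested. The gates cannot be checked here, because a table of rearranged DNA holds no level of B220 or CD5. Each deposited table lists clonotypes, and a clonotype here is 1 entry with its V gene, J gene, CDR3 amino acid sequence and number of reads. Some entries of a library had the same V gene, J gene and CDR3. These were summed where single clonotypes were compared or matched between libraries. Summing left 7116 and 6856 clonotypes in the B-1a libraries and 8517 and 8458 in the B-2 libraries.

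The kappa light chain gene is assembled by joining 1 of many *Igkv* gene segments to 1 of a few *Igkj* segments, without a D segment. The junction forms the end of CDR3, the loop of the light chain that contributes most to the variety of the binding site. B-1a cells are self-renewing lymphocytes of the body cavities whose receptors often bind bacterial and self antigens, and B-2 cells are the conventional B cells that recirculate through lymphoid organs. Among the light chains known from B-1a receptors, IGKV4-91 pairs with the VH12 heavy chain and IGKV14-126 with the VH11 heavy chain, both in antibodies to phosphatidylcholine, and IGKV7-33 belongs to the T15 idiotype that binds phosphorylcholine. The light chain sequences alone do not show which heavy chain a cell carried.

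Some of the CDR3s named in the comparison are printed first, and not all of them differed between the cell types. The following 4 are abundant CDR3s of IGKV14-126 and IGKV4-91, the light chains that differed most between the cell types, and show the same V-encoded start joined to different J genes. The last residue pair of each is encoded by the J gene.
IGKV14-126 IGKJ2: LQHGESPYT
IGKV14-126 IGKJ5: LQHGESPLT
IGKV4-91 IGKJ5: QQGSSIPLT
IGKV4-91 IGKJ2: QQGSSIPYT
The next pair belongs to IGKV9-128, which the tables mark as a pseudogene, and the last are the largest clonotype of B-2 cells, which uses IGKV8-24, and the largest of IGKV7-33.
IGKV9-128 IGKJ1: LQHASSPWT
IGKV9-128 IGKJ5: LQHASSPLT
IGKV8-24 IGKJ5: QQHYSTPLT
IGKV7-33 IGKJ5: AQFYSYPLT

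Depth was similar in the 4 libraries. There were 7234 and 6963 clonotypes in the B-1a libraries (275095 and 245026 reads) and 8652 and 8613 in the B-2 libraries (288396 and 288355 reads). Clonotypes of 1 read made up 57.7% to 59.2% of each of the 4 libraries, and a V gene represented by 3 clonotypes would have a share of 0.0347% to 0.0431%. Counts on V genes differed between replicates beyond sampling noise (chi-square 283.2 on 87 degrees of freedom in B-1a and 151.6 on 90 in B-2 cells), and the replicates were kept apart. CDR3s of more than 20 residues formed 4.17% and 2.69% of the B-1a clonotypes and 2.06% and 2.40% of the B-2 clonotypes, but 0.105% to 0.217% of reads. Unless reads are named, each clonotype was counted once. Reads carried no molecular barcode, so a share of reads mixes the number of cells with amplification.

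To ask which light chains distinguish the cell types, the share of clonotypes on each V gene was compared. IGKV4-91, IGKV14-126 and IGKV9-128 were higher in B-1a than in B-2 cells, and no V gene passed the test as lower. These 3 of 84 V genes tested (3.57%) passed an adjusted p-value of 0.05 in the quasi-likelihood test of edgeR, with p-values adjusted by Benjamini-Hochberg over all V genes tested. At an unadjusted p under 0.05 there were 18 V genes in both directions together, and DESeq2 found 4, all higher in B-1a cells. Over all V genes the median log2 fold change was −0.22, which TMM scaling moved to −0.02 and DESeq2 to 0.07, and the 3 genes lay above the median under each scaling. Both B-1a libraries lay above both B-2 libraries for 13.1% of the V genes, and below them for 42.9%, so that the libraries of 56.0% did not overlap.

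IGKV4-91, the partner of VH12, held 6.54% and 6.03% of the clonotypes in the B-1a libraries and 1.44% and 1.30% in the B-2 libraries. The mean was 4.58-fold higher in B-1a cells (log2 fold change 2.19 ± 0.17 SE, edgeR adjusted p = 3.6e-06). It was the most used V gene of both B-1a libraries, and it passed the test without any 1 of the 4 libraries. The primer mix contained a primer added by the authors for this V gene, so its level is not comparable with that of a V gene amplified by the degenerate primer alone, and what the primer contributes to the share was not tested.

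IGKV14-126, the partner of VH11, held 4.89% and 5.29% of clonotypes in B-1a and 1.65% and 1.47% in B-2 cells. The mean was 3.25-fold higher (log2 fold change 1.70 ± 0.20 SE, edgeR adjusted p = 0.00017), and without WT B-1a replicate 2 the adjusted p-value of edgeR was 0.055. IGKV9-128 held 3.61% and 4.39% in B-1a and 1.53% and 1.67% in B-2 cells, 2.5-fold higher in the mean (log2 fold change 1.32 ± 0.24 SE, edgeR adjusted p = 0.0043). For IGKV9-128 the log2 fold change ran from 1.17 to 1.46 when any 1 library was left out, with edgeR adjusted p-values from 0.074 to 0.159, so this call needed all 4 libraries. In all 3 genes both B-1a libraries lay above both B-2 libraries.

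IGKV7-33, the light chain of the T15 idiotype, held 1.05% and 1.12% of clonotypes in B-1a and 0.62% and 0.55% in B-2 cells. The libraries did not overlap, but the gene did not pass (log2 fold change 0.89 ± 0.44 SE, edgeR adjusted p = 0.306). Of the 5 V genes most used in B-2 cells, 4 had overlapping shares in both cell types. IGKV1-110 held 4.09% and 4.38% in B-1a and 4.22% and 4.28% in B-2 cells, and IGKV8-24 held 3.01% and 2.83% against 2.90% and 2.95%. For IGKV1-117 the shares were 3.47% and 4.08% against 3.57% and 3.39%, and for IGKV6-17 they were 2.18% and 2.69% against 2.60% and 2.81%. In these 4 genes the libraries of both cell types overlapped, with log2 fold changes from −0.15 to 0.12. TMM scaling and DESeq2 turned the sign for IGKV1-110, IGKV8-24 and IGKV6-17, and counting by reads turned it for IGKV1-117. The libraries did not overlap for the other of the 5, IGKV8-30, which held 5.32% and 3.73% in B-1a and 3.44% and 3.07% in B-2 cells (log2 fold change 0.48, edgeR adjusted p = 0.141).

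**Figure D1:**
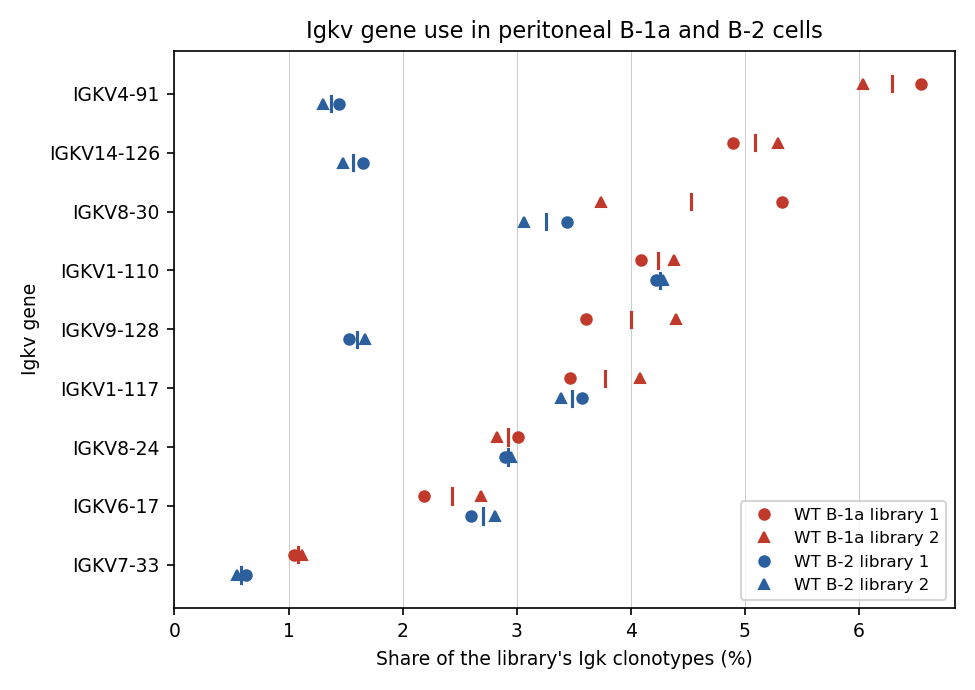
Share of each library's *Igk* clonotypes (x axis, in percent) on the 9 named *Igkv* genes (y axis). Circles and triangles are libraries 1 and 2, red for B-1a and blue for B-2 cells, and vertical ticks are group means. IGKV4-91, at 6.54% and 6.03% against 1.44% and 1.30%, has the widest gap, whereas the libraries overlap for IGKV1-110, IGKV1-117, IGKV8-24 and IGKV6-17.

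**Figure D2:**
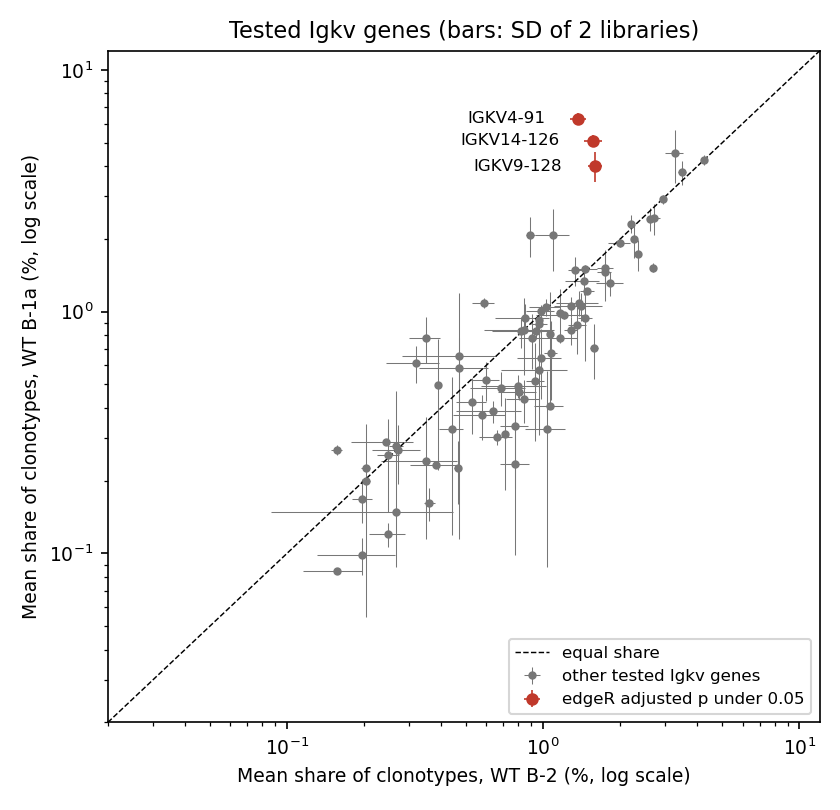
Mean share of clonotypes in B-1a (y axis) against B-2 cells (x axis), both in percent on log scales, for the 84 *Igkv* genes tested. Bars are the SD of 2 libraries and the dashed line marks equal shares. The 3 red points are the genes that passed the edgeR test, all above the line, and most other genes lie on or below it.

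The number of V genes that passed depended on which libraries were fitted together. When the 4 wild-type libraries were fitted without the *Igll1*-/- libraries, 11 of 84 V genes passed, 6 higher and 5 lower in B-1a cells. The higher genes then also included IGKV3-7 with a log2 fold change of 0.92, IGKV4-57-1 with 1.22 and IGKV8-30 with 0.48 (edgeR adjusted p from 1.7e-06 to 0.0029 in that fit). The lower genes were IGKV14-111, IGKV6-23, IGKV3-9, IGKV3-2 and IGKV12-38, with log2 fold changes from −0.81 to −1.73. In the fit over all 6 libraries these 8 genes had edgeR adjusted p-values from 0.066 to 0.172, and are not counted as changed. IGKV14-111 held 1.48% and 1.57% of clonotypes in B-1a and 2.73% and 2.62% in B-2 cells, which was the widest gap in favour of B-2 cells.

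Diversity of V gene use was lower in B-1a cells. As the exponential of the Shannon entropy of the shares, the effective number of V genes was 56.2 and 56.9 in the B-1a libraries and 68.6 and 67.7 in the B-2 libraries. Between 98 and 101 V genes were found in each of the 4 libraries, so the range of genes present was similar. Without IGKV4-91, IGKV14-126 and IGKV9-128 the effective numbers were 58.6 and 59.8 against 65.7 and 64.8, and the libraries still did not overlap. Weighted by reads they were 37.1 and 36.7 against 56.0 and 54.4. The two-sided exact permutation test gave p = 0.333, which is the smallest p-value that 2 libraries against 2 allow, and the same holds for every exact test below in which the libraries did not overlap.

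V families were compared next, a family being the number before the hyphen in the V gene name. IGKV9 and IGKV7 were higher and IGKV13 was lower in B-1a cells, 3 of 17 families tested (17.6%) at an edgeR adjusted p of 0.030 each, which is 11.8% of the families for the higher and 5.88% for the lower direction. IGKV9 held 4.87% and 5.67% of clonotypes in B-1a and 3.32% and 3.23% in B-2 cells, with a log2 fold change of 0.69 ± 0.23 SE. Of its 5 genes tested, IGKV9-128 alone passed. In mean share 2 of the 5 were higher and 3 lower, where the median log2 fold change over all V genes was −0.22. IGKV7 consists of IGKV7-33 only, so its call rests on the same clonotypes as that gene, which did not pass among the 84 (log2 fold change 0.89 ± 0.30 SE for the family). IGKV13 held 0.47% and 0.42% in B-1a and 0.84% and 0.89% in B-2 cells, with a log2 fold change of −0.97 ± 0.33 SE. Its clonotypes were listed under more than 1 V gene, IGKV13-84 or IGKV13-85, and thus entered no comparison of single genes. All 3 family calls were lost without any 1 of the 4 libraries (edgeR adjusted p from 0.076 to 0.470), where 0 families passed and 0 to 3 had an unadjusted p under 0.05. With TMM scaling in edgeR and with DESeq2 0 families passed, and 3 and 2 had an unadjusted p under 0.05.

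IGKV4 was the largest family, with 32.5% and 29.6% of clonotypes in B-1a and 28.2% and 28.5% in B-2 cells (log2 fold change 0.13, edgeR adjusted p = 0.320). Of its 25 tested members 8 were higher in B-1a cells and 17 lower, and IGKV4-91 was the one that passed. Lower genes were the more frequent over all V genes too, where the median log2 fold change was −0.22. Both B-1a libraries lay above for 2 of the 25 and both B-2 libraries for 12, where the shares over all V genes were 13.1% and 42.9%, and 3.57% passed. IGKV14 held 7.44% and 7.64% against 5.77% and 5.86% (log2 fold change 0.37, edgeR adjusted p = 0.139). It did pass by reads (log2 fold change 1.32, edgeR adjusted p = 0.0062), among clonotypes of 10 or more reads (1.03, edgeR adjusted p = 5.1e-07), after merging of near-identical clonotypes (0.57, edgeR adjusted p = 0.040) and in the 4 wild-type libraries alone (0.37, edgeR adjusted p = 0.0078). Within it IGKV14-126 was higher, and all 3 other genes tested had both B-2 libraries above both B-1a libraries, as 42.9% of all V genes did. Of the 17 families, 70.6% had libraries that did not overlap, 23.5% with B-1a and 47.1% with B-2 cells above.

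**Figure D3:**
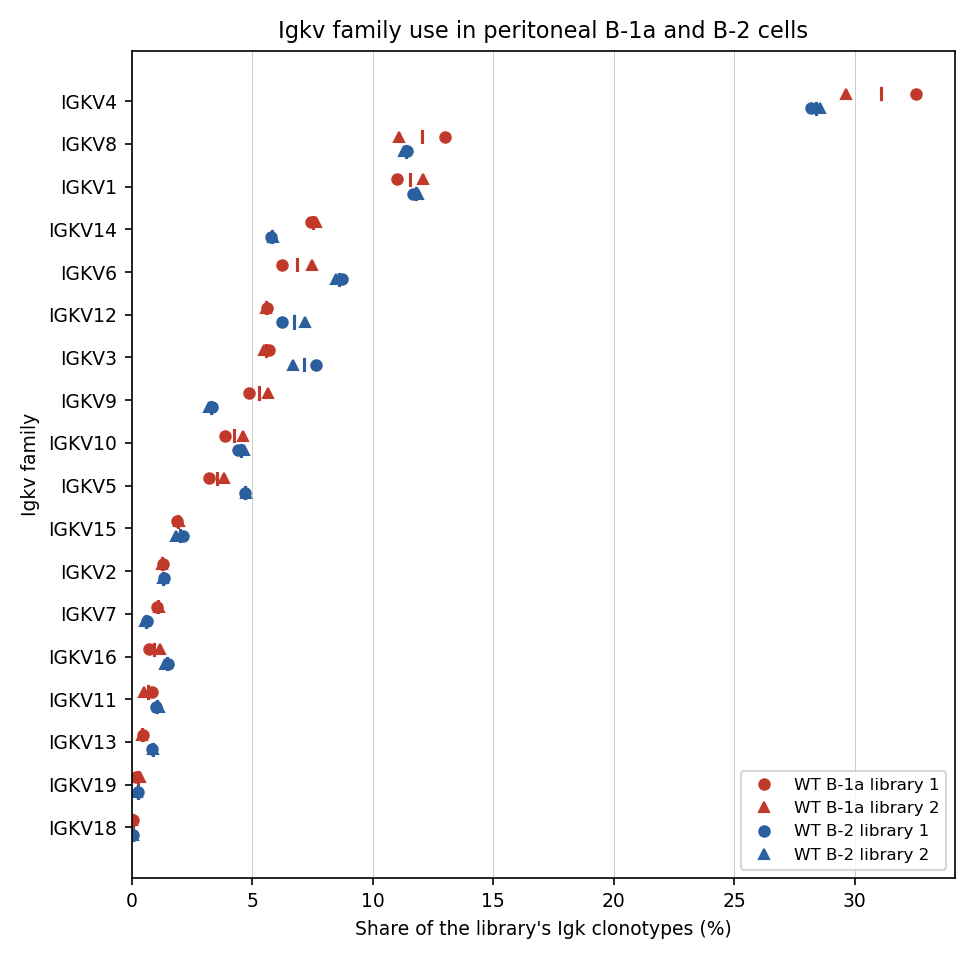
Share of each library's *Igk* clonotypes (x axis, in percent) in every *Igkv* family found (y axis), with symbols as in the plot of named genes. IGKV9, at 4.87% and 5.67% against 3.32% and 3.23%, and IGKV7 lie to the right in B-1a cells, and IGKV13 lies to the left. IGKV18, with under 10 clonotypes per library, was not tested.

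The IMGT gene numbers run from the J side of the locus outwards, so they give the order of the V genes without coordinates. V genes numbered above 90, farthest from J, held 41.3% and 43.9% of the clonotypes in B-1a and 35.5% and 35.6% in B-2 cells (exact permutation test, p = 0.333). Genes numbered 46 to 90 held 27.5% and 25.9% against 29.4% and 30.9%, and genes numbered 1 to 45 held 31.1% and 30.1% against 35.0% and 33.5%. The 3 genes that passed are all numbered above 90. Without them the farthest group held 30.1% and 32.7% in B-1a and 32.2% and 32.4% in B-2 cells, and the libraries of both cell types overlapped in all 3 groups.

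J gene use was compared in the same way, by share of clonotypes. IGKJ5, the most downstream J gene, was used by 51.5% and 51.6% of the clonotypes in B-1a and by 47.3% and 46.1% in B-2 cells. IGKJ1, the most upstream, was used by 22.7% and 19.8% against 24.8% and 26.4%. The libraries did not overlap for either gene (exact permutation test, p = 0.333 each), and they did not overlap when the 3 leading V genes were left out, with IGKJ5 at 53.4% and 52.0% against 46.9% and 45.6%. IGKJ2 was used by 23.3% and 26.1% in B-1a and 25.6% and 25.2% in B-2 cells, where the libraries overlapped. IGKJ4 was used by 1.02% to 1.19% and IGKJ3, which encodes no functional J segment in the mouse, by 0.22% to 0.33% of clonotypes.

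Of 202 V-J combinations tested, 6 passed in edgeR (2.97%), 5 higher (2.48%) and 1 lower (0.495%) in B-1a cells, whereas DESeq2 called 7 higher and 0 lower. The 5 higher combinations all used the 3 leading V genes. IGKV4-91 with IGKJ5 held 3.90% and 3.83% of clonotypes in B-1a and 0.92% and 0.73% in B-2 cells, and IGKV4-91 with IGKJ2 held 2.02% and 1.8% against 0.36% and 0.46%. Their log2 fold changes were 2.22 and 2.21 (edgeR adjusted p = 0.0023 for both). IGKV14-126 with IGKJ2 held 2.85% and 2.93% against 0.65% and 0.50%, the largest of these changes (log2 fold change 2.33 ± 0.27 SE, edgeR adjusted p = 0.0013). IGKV14-126 with IGKJ1 held 1.02% and 1.03% against 0.27% and 0.24% (log2 fold change 2.01, edgeR adjusted p = 0.020).

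IGKV9-128 with IGKJ1 held 1.70% and 0.69% of clonotypes in B-1a and 0.24% and 0.29% in B-2 cells, and passed (log2 fold change 2.16 ± 0.48 SE, edgeR adjusted p = 0.041). The B-1a libraries differed from each other here, and without WT B-1a replicate 1 the log2 fold change was 1.37 (edgeR adjusted p = 0.379). The lower combination, IGKV4-78 with IGKJ1, was found in 1 clonotype of each B-1a library and in 15 and 21 clonotypes of the B-2 libraries (log2 fold change −3.74, edgeR adjusted p = 0.014, DESeq2 adjusted p = 0.219). Over the libraries of a cell type the share was 14.8-fold higher in B-2 cells, with a 95% exact interval of 3.81 to 127 that covers counting error only. Without WT B-1a replicate 1 or 2, 0 combinations passed in edgeR (18 and 27 at an unadjusted p under 0.05), and without WT B-2 replicate 1 or 2 there were 2 and 3. With WT B-2 replicate 1 or 2 left out, IGKV14-126 with IGKJ2 and IGKV4-91 with IGKJ5 remained among those that passed. The libraries did not overlap for 62.9% of the 202 combinations, and 16.8% had both B-1a libraries above.

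Inside IGKV14-126 the J genes were shared out differently. IGKJ2 was used by 58.2% and 55.4% of the IGKV14-126 clonotypes in B-1a and by 39.2% and 33.9% in B-2 cells, whereas IGKJ5 was used by 18.1% and 23.4% against 42.7% and 48.8%. The libraries did not overlap for either J gene. Of the sequences printed above, LQHGESPYT with IGKJ2 held 73.8% and 70.1% of the IGKV14-126 reads in B-1a cells, and LQHGESPLT with IGKJ5 was the largest in both B-2 libraries with 37.6% and 33.4%. The lead in B-2 cells was small, with 1265 reads of LQHGESPLT against 1025 of LQHGESPYT in replicate 1 and 916 against 914 in replicate 2. Of all reads, LQHGESPLT held 0.41% and 0.79% in B-1a and 0.44% and 0.32% in B-2 cells. There the libraries overlapped and the clonotype did not pass (edgeR adjusted p = 0.668). In IGKV4-91 the same clonotype, QQGSSIPLT with IGKJ5, was the largest in all 4 libraries. It held 59.4% and 53.6% of the IGKV4-91 reads in B-1a and 58.0% and 49.2% in B-2 cells, so the leading clonotype was the same although the share of the V gene was not.

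In both V genes the CDR3s varied little at their V-encoded start. CDR3s beginning with LQHGES held 93.6% and 93.1% of the IGKV14-126 reads in B-1a and 94.4% and 95% in B-2 cells. Those beginning with QQGSSI held 92.7% and 91.8% of the IGKV4-91 reads in B-1a and 94.9% and 91.7% in B-2 cells. Counted as clonotypes, these starts covered 21.8% to 33.1% of IGKV14-126 and 25.5% to 42.0% of IGKV4-91, since most other variants had few reads. When each clonotype was merged into a neighbour that differed by 1 residue and had 10 or more times its reads, IGKV14-126 held 6.82% and 6.65% in B-1a and 1.62% and 1.5% in B-2 cells, and IGKV4-91 held 8.14% and 6.39% against 1.77% and 1.18%. By reads the gaps were wider, with IGKV4-91 at 12% and 12.2% against 1.46% and 1.32%, and IGKV14-126 at 9.02% and 10.1% against 1.17% and 0.95%.

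IGKV9-128 differed from both in being almost always unproductive. Between 0.69% and 2.27% of its clonotypes in the 4 libraries were marked productive. In B-1a replicate 1 its largest clonotype was LQHASSPWT with IGKJ1 at 59.7% of the IGKV9-128 reads, and in B-1a replicate 2 it was LQHASSPLT with IGKJ5 at 77.2%. LQHASSPLT was also the largest in both B-2 libraries. IGKJ1 was used by 47.1% and 15.7% of the IGKV9-128 clonotypes in B-1a and by 15.9% and 17.4% in B-2 cells, so that B-1a replicate 1 stood apart from the other 3 libraries. The gene's share of all reads was 3.38% and 3.68% in B-1a and 0.84% and 0.93% in B-2 cells, which did not pass by reads (log2 fold change 2.0, edgeR adjusted p = 0.096).

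A rearrangement that carries a stop codon, or uses a V gene that cannot make a protein, encodes no light chain. The tables list no out-of-frame rearrangement, and a clonotype was marked productive in 86.4% and 86.7% of cases in B-1a and in 88.6% and 88.2% in B-2 cells. The Wilson 95% intervals were 85.6% to 87.2% and 85.9% to 87.5% in B-1a, and 87.9% to 89.2% and 87.5% to 88.9% in B-2 cells. The libraries did not overlap (exact permutation test, p = 0.333). IGKV9-128 made up 26.3% and 32.5% of the unproductive clonotypes in B-1a and 13% and 14.1% in B-2 cells. Without IGKV9-128 the productive share was 89.6% and 90.6% in B-1a and 89.9% and 89.7% in B-2 cells, where the libraries overlapped (exact permutation test, p = 1). By reads the productive share was 95.3% in both B-1a libraries and 97.9% and 97.4% in the B-2 libraries, and without IGKV9-128 it was 98.7% and 99.0% against 98.8% and 98.3%.

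V gene use was then compared separately in both classes. Among productive clonotypes 4 of 79 V genes passed (5.06%), 3 higher (3.8%) and 1 lower (1.27%) in B-1a cells. IGKV4-91 and IGKV14-126 were higher in B-1a cells, with log2 fold changes of 2.21 and 1.69 (edgeR adjusted p = 2.9e-08 and 1.7e-05). IGKV3-7 was higher too, at 2.56% and 1.76% against 1.24% and 1.0% (log2 fold change 0.95, edgeR adjusted p = 0.045), and IGKV14-111 was lower, at 1.60% and 1.69% against 2.91% and 2.83% (log2 fold change −0.80, edgeR adjusted p = 0.045). Without WT B-1a replicate 1, WT B-1a replicate 2 or WT B-2 replicate 2, 2 of these V genes passed, and without WT B-2 replicate 1 there were 3, all of them higher in B-1a cells, so the call on IGKV14-111 needed all 4 libraries.

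Among unproductive clonotypes 3 of 32 V genes passed (9.38%), 2 higher (6.25%) and 1 lower (3.12%), each at an edgeR adjusted p of 0.023. IGKV14-126 held 2.95% and 3.45% of the unproductive clonotypes in B-1a and 0.61% and 0.89% in B-2 cells, and IGKV4-91 held 3.46% and 2.8% against 0.71% and 0.69%. Their log2 fold changes, 2.08 and 2.14, are near those of the productive clonotypes. IGKV9-128 was higher too but did not pass (log2 fold change 1.11, edgeR adjusted p = 0.076). IGKV6-23 had 4 and 3 unproductive clonotypes in B-1a and 14 and 13 in B-2 cells. It was lower, at 0.41% and 0.32% against 1.41% and 1.28% (log2 fold change −1.84). These shares rest on 29 and 32 unproductive IGKV14-126 clonotypes in B-1a and 6 and 9 in B-2 cells, and without any 1 of the 4 libraries 0 V genes passed in edgeR (3 to 5 at an unadjusted p under 0.05). Unproductive clonotypes had 1 read in 68.0% to 72.4% of cases, against 56.2% to 57.6% of productive ones. The difference between B-1a and B-2 cells was tested for a dependence on productivity in 27 V genes that had enough clonotypes in both classes. It passed for 0 of them in edgeR (1 at an unadjusted p under 0.05, smallest adjusted p = 0.622), and for 1 without WT B-1a replicate 2. No other tool was run on this difference. In the 4 libraries 51.8% to 54.3% of the unproductive clonotypes held a stop codon in the CDR3. Whether they are rearrangements of their own or sequence variants of abundant productive clonotypes was not tested. The V genes of such variants would follow those of the productive clonotypes. The near fold changes and the test of productivity are therefore not an independent comparison of the 2 classes.

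Length of the light chain CDR3 is narrowly set in the mouse, and 9 residues was the most frequent length in all 4 libraries. It accounted for 75.1% and 77.5% of the productive clonotypes in B-1a and 72.8% and 72.1% in B-2 cells, and the libraries did not overlap (exact permutation test, p = 0.333). Without the 3 leading V genes it was 74.2% and 76.6% against 72.6% and 71.8%. With clonotypes of at least 10 reads the gap was wider, at 71.1% and 71.6% against 58.1% in both B-2 libraries. By reads it was 86.3% and 87.6% against 84.4% and 84.5%.

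CDR3s of 7 residues were found in 0.86% and 1.11% of clonotypes in B-1a and 1.83% and 1.97% in B-2 cells, and those of 11 residues in 0.98% and 1.28% against 1.68% and 2.09%. Those of 8 residues were found in 11.2% and 9.87% against 11.4% and 12.3%, and those of 10 in 8.96% and 8.48% against 10.5% and 9.24%. At each of these 4 lengths both B-2 libraries lay above both B-1a libraries. The mean length was 10.05 and 9.48 residues in B-1a and 9.51 and 9.59 in B-2 cells, with B-1a replicate 1 set apart by its CDR3s of more than 20 residues. Without those the means were 8.98 and 9.0 against 8.99 and 8.97, where the libraries overlapped.

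**Figure D4:**
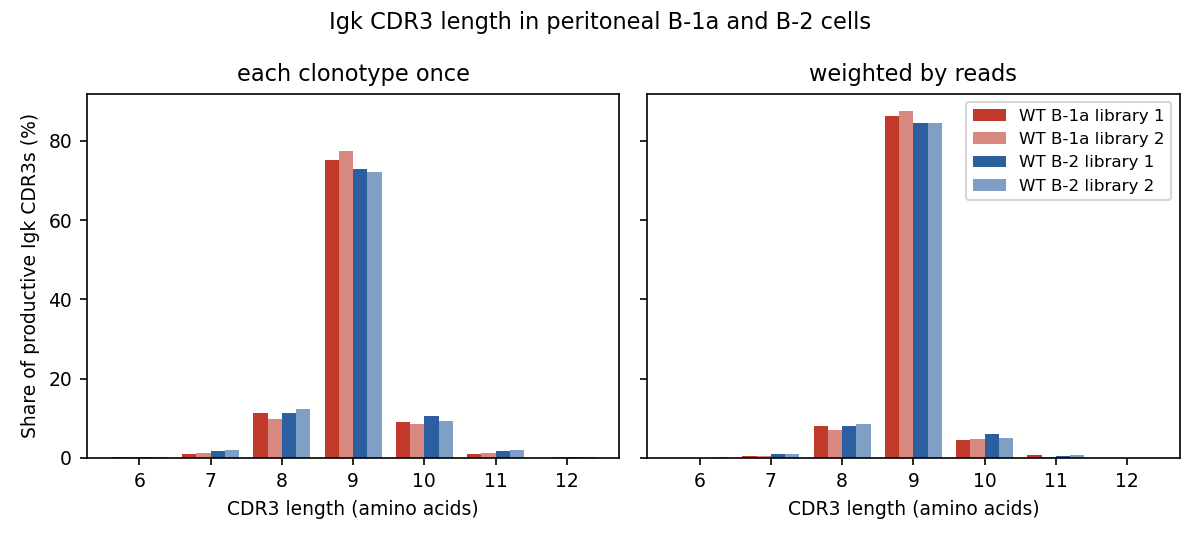
Share of productive *Igk* clonotypes (left) or of their reads (right) in percent on the y axis, by CDR3 length in amino acids on the x axis, with 1 bar per library. Lengths of 6 to 12 residues are drawn. Bars at 9 residues are higher in both B-1a libraries than in both B-2 libraries, at 75.1% and 77.5% against 72.8% and 72.1% of clonotypes.

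Amino acid composition was taken over all residues of the productive CDR3s, so a long CDR3 weighs more than a short one. CDR3s of more than 20 residues were most frequent in B-1a replicate 1, at 4.17% of all its clonotypes. What they add to the residue shares is not separated here. Isoleucine, which IGKV4-91 encodes within its CDR3, formed 1.72% and 1.59% of residues in B-1a and 0.88% in both B-2 libraries. Glycine, found in the CDR3s of both IGKV4-91 and IGKV14-126, formed 4.63% and 4.37% against 3.53% and 3.41%. Tryptophan formed 3.64% and 3.77% in B-1a and 4.2% and 4.37% in B-2 cells. Of the 20 residues 75.0% did not overlap between the cell types, and with exact permutation tests adjusted over the 20 residues the smallest adjusted p-value was 0.444. Without the 3 leading V genes isoleucine was at 1.25% and 1.08% against 0.78% in both B-2 libraries, and glycine at 3.77% and 3.61% against 3.32% and 3.21%.

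The mean hydropathy of a CDR3 was −1.13 and −1.16 on the Kyte-Doolittle scale in B-1a and −1.24 in both B-2 libraries, so the B-1a CDR3s were less hydrophilic (exact permutation test, p = 0.333). Their order was the same without the 3 leading V genes, at −1.16 and −1.19 against −1.25 in both B-2 libraries. The mean net charge was 0.044 and 0.043 in B-1a and 0.072 and 0.091 in B-2 cells, but the libraries overlapped once CDR3s of more than 20 residues were left out. In productive clonotypes on IGKJ1, IGKJ2, IGKJ4 or IGKJ5 alone, the last but one residue was compared with the first whole residue of the germline J gene. It was the same in 63.4% and 65.7% of them in B-1a and in 63.2% and 61.7% in B-2 cells (exact permutation test, p = 0.333). Amino acids alone were compared, so a codon that changed without changing its residue counted as the same. For IGKJ2 the order was the opposite, at 62.2% and 66.3% against 66.5% and 66.8%. V gene sequences without any difference from the germline made up 9.82% and 9.77% of productive clonotypes in B-1a and 9.51% and 10.5% in B-2 cells. Of the reads of productive clonotypes they held 89.6% and 88.3% against 84.1% and 86.0%. Sequences that differed from the germline thus held a small part of the reads, and what made them differ was not tested.

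Reads were concentrated on fewer clonotypes in B-1a cells. A clonotype here is a light chain sequence that several unrelated cells can share, so these values do not measure the size of clones. The 10 largest clonotypes held 30.0% and 28.5% of the reads in B-1a and 16.6% and 16.5% in B-2 cells, and the single largest held 7.12% and 7.07% against 2.56% and 2.67%. It took 36 and 33 clonotypes to reach 50% of the reads in B-1a and 77 and 76 in B-2 cells. The effective number of clonotypes was 263 in both B-1a libraries and 526 and 525 in the B-2 libraries, and it was 261 and 263 against 521 and 520 when each library was thinned to 214000 reads. None of these measures overlapped (exact permutation test, p = 0.333 each). Without the 3 leading V genes the 10 largest clonotypes held 23.2% and 21.6% against 17.2% and 17.0%.

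**Figure D5:**
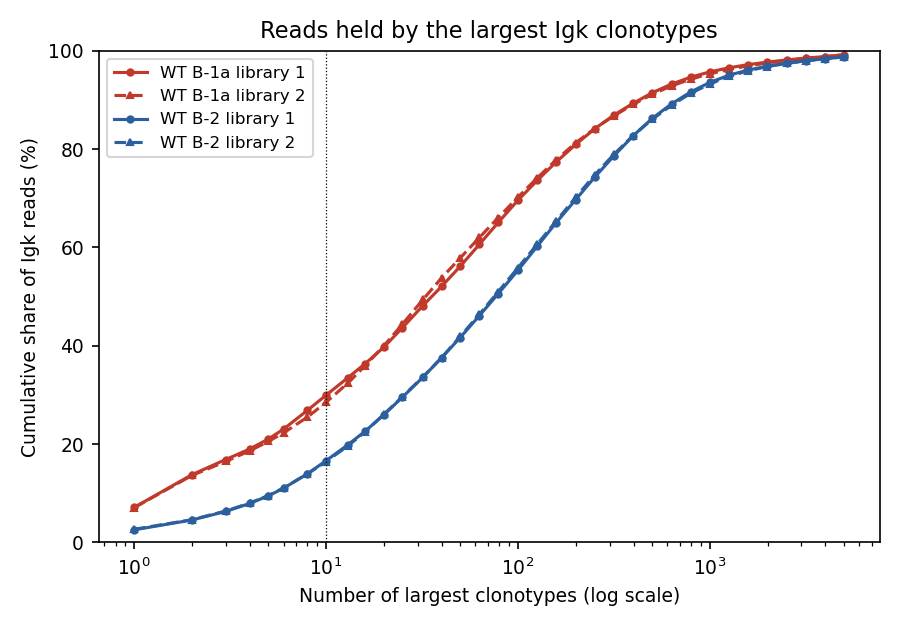
Cumulative share of *Igk* reads in percent (y axis) held by the largest clonotypes, whose number is on the x axis (log scale). Red lines are B-1a and blue lines B-2 libraries, and the dotted line marks 10 clonotypes. At 10 clonotypes the B-1a libraries stand at 30.0% and 28.5% and the B-2 libraries at 16.6% and 16.5%.

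The most abundant clonotypes were compared one by one, by their share of reads. LQHGESPYT of IGKV14-126 with IGKJ2 held 6.65% and 7.07% of all reads in B-1a and 0.36% and 0.32% in B-2 cells. Its mean was 20.4-fold higher in B-1a cells, and it was the one clonotype of 1006 tested (0.0994%) that passed (log2 fold change 4.35 ± 0.35 SE, edgeR adjusted p = 0.036). Without any 1 library it did not pass, with edgeR adjusted p-values from 0.311 to 0.987, although the log2 fold change stayed between 4.27 and 4.44. DESeq2 called 37 of the 967 clonotypes to which it gave an adjusted p-value, 31 higher and 6 lower in B-1a cells. The median log2 fold change over clonotypes was −0.70, or −0.14 with TMM scaling, and 148 of the 1006 clonotypes had an unadjusted p under 0.05 in edgeR.

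QQGSSIPLT of IGKV4-91 with IGKJ5 held 7.12% and 6.55% of reads in B-1a and 0.85% and 0.65% in B-2 cells, 9.13-fold higher in the mean, and did not pass in the fit over the 3 groups (log2 fold change 3.19 ± 0.71 SE, edgeR adjusted p = 0.215). In the fit of the 4 wild-type libraries it passed (edgeR adjusted p = 0.041), as did LQHGESPYT and 3 further clonotypes of the same V genes. These were LQHGESPWT of IGKV14-126 with IGKJ1, at 0.95% and 0.96% against 0.098% and 0.081%, QQGSSIPYT of IGKV4-91 with IGKJ2, at 1.21% in both B-1a libraries against 0.11% and 0.13%, and QQGSSIPRT of IGKV4-91 with IGKJ2, at 0.88% and 0.97% against 0.12% and 0.10%. AQFYSYPLT of IGKV7-33 with IGKJ5 held 1.23% and 1.73% against 0.40% and 0.48% (edgeR adjusted p = 0.449). In all of these the B-1a libraries lay above the B-2 libraries, in the direction of 15.6% of the clonotypes tested, whereas 45.4% had both B-2 libraries above.

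Other large clonotypes were common to both cell types. QQHYSTPLT of IGKV8-24 with IGKJ5, the largest of B-2 cells, held 2.56% and 2.67% of reads there and 2.02% and 1.66% in B-1a cells. QQYYSYPLT of IGKV8-30 with IGKJ5 held 3.09% and 2.17% in B-1a and 1.74% and 1.76% in B-2 cells, and QQWSSYPLT of IGKV4-53 with IGKJ5 held 2.14% and 1.91% against 1.49% and 1.40%. None of these passed in edgeR, at adjusted p-values of 0.797, 0.551 and 0.587. FQGSHVPLT of IGKV1-117, QQRSSYPLT of IGKV4-57 and SQSTHVPLT of IGKV1-110, all with IGKJ5, completed the 5 largest of B-2 cells, at means of 1.81%, 1.78% and 1.46% of reads there and 1.33%, 1.48% and 1.04% in B-1a cells. Every one of these named clonotypes had a CDR3 of 9 residues. LQHASSPWT and LQHASSPLT of the pseudogene IGKV9-128 were uneven between the B-1a libraries, at 2.02% and 0.11% of reads for the former and 0.80% and 2.84% for the latter.

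Of the 10 largest clonotypes of each cell type, ranked by mean share of reads, 4 were shared, and of the 100 largest 75 were shared. The 10 largest of B-1a cells held 28.1% of the B-1a reads and 10.6% of the B-2 reads, and those of B-2 cells held 16.1% of the B-2 and 14.5% of the B-1a reads. In all, 20098 clonotypes were found in the 4 libraries, with entries of the same V gene, J gene and CDR3 summed. Of these 1650 were in all 4 libraries, 8.21% of the total, and 14046 were in 1 library, 69.9% of the total. Clonotypes found in all 4 libraries held 90.2% and 91.0% of the B-1a reads and 85.3% and 86.0% of the B-2 reads. A CDR3 of 9 residues was found in 85.5% of them, against 65.0% of those found in 1 library.

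There were 533 clonotypes in both B-1a libraries and in neither B-2 library, 2.65% of all found, with 0.96% and 1.19% of the B-1a reads. In both B-2 libraries and neither B-1a library there were 870, 4.33% of all found, with 2.34% and 2.38% of the B-2 reads. CDR3s of 9 residues formed 84.4% of the former and 71.7% of the latter. The largest of the latter, HQRSSYLT of IGKV4-70 with IGKJ5, had 168 and 199 reads in the B-2 libraries and 0 in the B-1a libraries, which allows a share of up to 0.00109% and 0.00122% there. The *Igll1*-/- B-1a libraries held 120 reads and 1 read of it. Wild-type libraries of 1 cell type were more alike than wild-type libraries of different types when weighted by reads. The Morisita-Horn index, which is 1 for identical shares and 0 when nothing is shared, was 0.940 between the B-1a libraries and 0.932 between the B-2 libraries, and 0.481 to 0.506 across the cell types. Between the 2 *Igll1*-/- B-1a libraries it was 0.485, so replicates of a group were not always this alike. Unweighted, 24.7% and 25.4% of the clonotypes of a pair were shared within a cell type and 21.3% to 22.3% across the cell types. The mean within minus the mean across was 0.442 for the index, with an exact permutation p of 0.333 over the 3 ways to split 4 libraries into pairs, which is the smallest p-value this design allows.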

How the data were processed

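PCR products of rearranged *Igk* DNA, size selected at 100 to 280 bp, were amplified with a degenerate V primer, further primers for some V segments common in B-1a cells, and J primers, so shares of V genes depend on the primers. The labels name a MiSeq, the methods a HiSeq. The authors assigned V and J genes with IMGT/HighV-QUEST and deposited, per library, 1 entry per clonotype with its count of reads. The identity to the germline V gene was deposited by the authors as a percent. The labels do not say whether replicates came from separate mice, so p-values measure only the spread between libraries. Intervals and limits cover counting error only.

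Each clonotype was counted once per V gene, family, J gene or V-J combination. Those listed with several V genes, 5.93% to 6.55% per library, counted to no gene but remained part of the library size. Features with at least 10 clonotypes, or clonotypes with at least 20 reads, in at least 2 libraries were tested with edgeR 4.0.16 (quasi-likelihood, Benjamini-Hochberg, R 4.3.3) over 6 *Igk* libraries in 3 groups, with library totals as sizes. The *Igll1*-/- libraries counted in this filter, which passed 1006 clonotypes and 202 V-J combinations. With the 4 wild-type libraries alone it passed 920 and 200. The 4 *Igh* libraries were not used. Single measures were compared by two-sided exact permutation tests (scipy 1.17.1, with numpy 2.4.6, pandas 2.3.3 and matplotlib 3.10.9 on Python 3.11.15). Alternatives were counting by reads, at least 10 reads, merging of near-identical clonotypes, TMM factors, DESeq2 1.42.0, no filter, the 4 wild-type libraries alone, a replicate block and leaving out each library. Leaving out CDR3s over 20 residues, the V genes that passed or IGKV9-128, and a crossed pairing, were chosen after seeing the data.

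Tested on simulated counts, edgeR found 37.5% of 8 V genes made to differ 2-fold and 75% of 8 at 4-fold, among 84 V genes. It found 40% and 85% of 20 V-J combinations each, among 202, and 7% of 100 clonotypes at 16-fold, among 1006. All features of a kind were simulated with the same spread, unlike the data. Of features left unchanged it called 2.94% of 68 V genes, 0% of 162 V-J combinations and 0.124% of 806 clonotypes. Members, lists and tests were chosen with earlier results of these data known. Named V genes were up to 10 in each direction that passed without overlap, the 5 most used of either cell type, and IGKV4-91, IGKV14-126 and IGKV7-33. Named combinations and clonotypes were up to 5 in each direction that passed, and the 5 largest clonotypes of either cell type. Other named genes and clonotypes were chosen after their values were seen.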

Additional observations from a re-analysis of the deposited data

How the results depend on the processing

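The number of V genes that passed, 3, was 5 after merging, 11 without the filter, 11 with the 4 wild-type libraries alone and 1 to 2 without 1 library. For the 3 families the count was 5 by reads, 5 after merging, 0 with TMM factors, 0 with DESeq2, 1 without the filter, 10 with the 4 wild-type libraries alone and 0 without any 1 library. For the 6 V-J combinations it was 1 by reads, 2 with at least 10 reads, 3 without the filter, 27 with the 4 wild-type libraries alone and 0 to 3 without 1 library. Of productive V genes 2 passed with at least 10 reads, 11 with the 4 wild-type libraries alone and 2 to 3 without 1 library. Of unproductive ones 1 passed with at least 10 reads and 0 without any 1 library, and the test of productivity gave 0 to 1. Of clonotypes 0 of 3807 passed with at least 2 reads (505 at an unadjusted p under 0.05 in edgeR), 37 with DESeq2, 5 with the 4 wild-type libraries alone and 0 without any 1 library. The causes were not tested.

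With the replicate number as a block (replicate block) 8 V genes, 0 families (3 at an unadjusted p under 0.05 in edgeR), 3 V-J combinations and 0 clonotypes (83 at an unadjusted p under 0.05) passed. Between B-1a and B-2 libraries of equal number, deviations from the group means had r = 0.01 over 84 V genes, −0.47 over 17 families and −0.03 over 202 combinations, so the numbers were not taken to pair the libraries. With the numbers crossed, in the 4 wild-type libraries, 10 V genes, 5 families and 14 combinations passed, against 11, 6 and 31 as labelled.

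Values with no call changed sign as follows, on the log2 scale. IGKV1-110 was at 0.040 without long CDR3s, 0.20 with TMM factors, 0.29 with DESeq2, and from −0.055 to 0.043 without 1 library. IGKV1-117 was at −0.28 by reads, −0.014 with at least 10 reads and from −0.0046 to 0.23 without 1 library. IGKV8-24 was at 0.021 without long CDR3s, 0.20 with TMM factors, 0.29 with DESeq2 and from −0.048 to 0.043 without 1 library, and IGKV6-17 at 0.051 and 0.14 with TMM factors and DESeq2. With TMM factors and DESeq2 the clonotype QQHYSTPLT was at 0.059 and 0.13, FQGSHVPLT at 0.11 and 0.19, QQRSSYPLT at 0.30 and 0.37 (from −0.65 to 0.027 without 1 library) and SQSTHVPLT at 0.072 and 0.15.

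As B-1a minus B-2, the productive share was 0.110 points without the V genes that passed and 0.296 without IGKV9-128, against −2.0 to −1.68 without 1 library. Mean CDR3 length was −0.021 with at least 10 reads and −0.069 to 0.49 residues without 1 library. Germline V identity was 3.92 points by reads, 1.49 with at least 10 reads and −0.68 to 0.28 without 1 library. IGKJ2 was 2.41 points by reads, 2.64 after merging and −2.07 to 0.660 without 1 library. Without the V genes that passed, glutamate was at −0.090, threonine at 0.035 and tyrosine at 0.030 points. The difference in IGKJ5 (4.31 to 5.48 points), germline J residues (0.915 to 3.29 points), effective V genes (−12.1 to −11.2) and reads of the 10 largest clonotypes (12 to 13.4 points) kept its sign without any 1 library. The unproductive comparison rests on 927 to 1013 clonotypes per library.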
